A study of Mus musculus with 8 samples.

Results

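The mouse hippocampus has stretches of genome in which peaks of 5-hydroxymethylcytosine (5hmC) are few but not absent, and 258 such windows of 1 Mb are described here. Peaks were counted by their midpoint in 1 Mb windows along chromosomes 1 to 19 of the mouse build mm9. A window was kept when its mean over the 8 peak lists was at least 5 and below 10 peaks. Of 2174 windows with a peak in any list, 626 had a mean below 5, 258 were in the chosen range and are called sparse windows, and 1290 had a mean of at least 10 and are called denser windows. The sparse windows held 14817 of the 393283 peaks in the 8 lists. The windows were chosen by the measured peak counts themselves, so that their low peak number is a description and not a result. Longer lists weigh more in that mean than shorter ones.

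All mice were on the C57BL/6 background and genomic DNA from the hippocampus was used. The 4 groups were young control (6 weeks of age, standard cages), young enriched (6 weeks, enriched environment), aged control (18 months, standard cages) and aged enriched (18 months, enriched environment). The enriched environment was a roomy chamber holding toys, tunnels and an exercise wheel, which mice entered for 5 h per day over 4 weeks. Each group had 2 samples, and the labels do not say whether these were separate mice, pools of mice or repeat preparations, so that a p-value speaks only of how much these particular samples vary, in part perhaps for technical reasons. The design asks whether housing moves 5hmC along the genome and whether age alters that.

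5hmC is made from 5-methylcytosine by the TET dioxygenases, and it reaches high levels in neurons, mostly in the bodies of expressed genes and at enhancers. Gene-poor stretches of chromosome, many of which lie near the nuclear lamina in a compact state, generally carry less of it. A peak here is an interval in which DNA fragments pulled down through a biotin tag on 5hmC piled up above the background of the peak caller. It gives no 5hmC level per cytosine, and the hippocampus holds several types of neurons and glia that were not separated. Genes in the windows were not assigned and no sequence is printed, since an mm9 genome and annotation were not used here.

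The lists differed in length from 25548 to 78980 peaks, and the number of reads behind them is unknown. Aged enriched replicate 2 stood apart from the other 7 lists. Its peaks in sparse windows were narrow, with a median of 421 bp (all other samples 618 to 857 bp), and 72.7% of them scored 100 or higher (all other samples 4.87 to 19.2%). The score is the authors' value for a peak, written by the caller MACS as −10 times the log10 of its p-value. Scores rank peaks within a list, and a share above a score of 100 depends also on how strongly each list was called. The number of called windows, the median difference between the aged groups and the score difference are also given without this sample. Recurrence, region counts and counts at an unadjusted p include it.

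The chosen windows had means of 5.0 to 9.875 peaks per list, with a median of 7.0, against a median of 29.6875 and a highest mean of 136 in denser windows. Just below the lower bound, the windows at 45 to 46 Mb and 105 to 106 Mb of chromosome 10 and 71 to 72 Mb of chromosome 13 had a mean of 4.875. Just inside it, at 5.0, were 165 to 166 Mb of chromosome 1, 138 to 139 Mb of chromosome 2 and 18 to 19 Mb of chromosome 6. Just inside the upper bound, at 9.875, were 97 to 98 Mb of chromosome 7, 128 to 129 Mb of chromosome 10 and 31 to 32 Mb of chromosome 12. At 10.0, and so outside, were 81 to 82 Mb of chromosome 10, 41 to 42 Mb of chromosome 15 and 55 to 56 Mb of chromosome 16. Windows on either side of a bound thus differed by 1 peak in all 8 lists together, and the bounds mark a range, not a kind of chromatin.

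Sparse windows were thinly marked in each sample and rarely empty. Paired values give replicate 1 and then replicate 2 throughout. The mean number of peaks per sparse window was 6.46 and 12.4 in controls and 8.81 and 8.73 in enriched samples of young mice, and 6.84 and 4.45 in controls and 3.82 and 5.91 in enriched samples of aged mice. The same mean in denser windows ran from 18.6 to 57.4. No sparse window was empty in a young sample, while 1 and 2 windows held no peak in aged control replicates 1 and 2 and 6 and 1 in aged enriched replicates 1 and 2. The longest list, young control replicate 2, had 4 to 22 peaks in every sparse window. The length of DNA under peaks averaged 2.51 to 11.6 kb per sparse window across the samples, against 9.75 to 63.6 kb per denser window.

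The most frequent setting of a sparse window was a border between denser and emptier territory. Of the 258, 107 (41.5%) had a window of mean at least 10 on one side and a window of mean below 5, or with no peak, on the other. Another 52 (20.2%) lay between 2 denser windows, and 37 (14.3%) between 2 windows of mean below 5 or with no peak. At least 1 denser neighbour was present for 195 windows (75.6%) and at least 1 sparse neighbour for 62 (24.0%). The denser neighbour had a median of the window means of 19.4 and the thinner neighbour one of 2.25. None was the first window with a peak on its chromosome and 4 were the last. The shares that the mix of window classes alone would give were not computed, so no trait particular to sparse windows is read from these neighbours.

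Peaks within the sparse windows crowded towards the denser side. Over all 8 lists, 63.6% of the peaks lay in the 500 kb next to the denser neighbour, with 60.4 to 65.1% in single samples. In the 107 windows at a border it was 76.0%, with 73.1 to 77.1% in single samples, and 90 of these 107 windows had over 50% of their peaks on that side. Both housings and both ages fell in these narrow ranges, the lowest values being those of aged enriched replicates 1 (60.4%, all sparse windows) and 2 (73.1%, border windows). Such windows were thus more filled on 1 side than on the other. These shares are descriptive, since neighbours were classed by the same counts.

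Within a window the peaks were neither evenly laid out nor in 1 place as a rule. Cut into 10 segments of 100 kb, a sparse window had a peak of any sample in a median of 8 segments, and 28 windows had a peak in every segment. The busiest segment held a median of 37.3% of the window's peaks. The exceptions, chosen after their values were seen, were 27 to 28 Mb of chromosome 7, 133 to 134 Mb of chromosome 6 and 85 to 86 Mb of chromosome 18, where the busiest segment held 100.0%, 92.5% and 88.9% of the peaks. All 44 peaks at 27 to 28 Mb of chromosome 7 fell in 1 segment, and each sample had 3 to 9 of them. The few peaks of a sparse window could thus be thinly spread or lie in a single short stretch.

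The windows were spread over all 19 chromosomes tested, at unequal density. Of the tested windows, 16.7% were sparse overall. The share was highest on chromosome 16 (15 of 60, 25.0%), chromosome 13 (17 of 72, 23.6%) and chromosome 1 (26 of 115, 22.6%). It was lowest on chromosome 11 (5 of 90, 5.56%), chromosome 17 (5 of 62, 8.06%) and chromosome 14 (7 of 69, 10.1%). Most sparse windows stood alone: 196 had no sparse neighbour, 26 runs had 2 windows, 2 had 3 and 1 had 4.

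The longest run was 39 to 43 Mb of chromosome 16. It held 30 and 41 peaks in controls and 23 and 25 in enriched samples of young mice, and 8 and 12 in controls and 16 and 22 in enriched samples of aged mice. Per 1000000 peaks of the list this was 686 and 519, 400 and 420, 135 and 316, and 626 and 714. Both aged control samples were below the other 6 on this scale. The other runs were flatter. At 34 to 37 Mb of chromosome 12 the samples ranged from 421 to 595 peaks per 1000000, and at 115 to 118 Mb of chromosome 2 from 289 to 551, again with an aged control sample lowest in each.

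Peaks in sparse windows were narrower than peaks in denser windows of the same sample. Median widths in sparse windows were 826 and 857 bp in controls and 777 and 817.5 bp in enriched samples of young mice, and 761 and 680 bp in controls and 618 and 421 bp in enriched samples of aged mice. In denser windows of the same samples, in the same order, they were 927 and 961, 873 and 923, 876 and 743, and 654 and 431 bp. The sparse value was lower in 8 of 8 samples, with a mean difference of −78.8 ± 38.3 bp (SD, n = 8). An exact two-sided sign-flip permutation test over the 8 samples gave p = 0.00781, the smallest it can give. Width comes from the same peak calls as the counts that chose the windows. The part of that choice in the difference was not tested. Peaks of at least 2 kb made up 0 to 1.41% of the peaks in sparse windows and 0.00354 to 5.59% in denser ones. The gap was smallest in the aged enriched samples, whose peaks were narrow everywhere.

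Strong peaks were also rarer there. The share of peaks with a score of 100 or more in sparse windows was 13.6% and 19.2% in controls and 13.0% and 13.1% in enriched samples of young mice, and 12.8% and 9.24% in controls and 4.87% and 72.7% in enriched samples of aged mice. In denser windows it was 23.4% and 32.9%, 24.5% and 26.0%, 25.6% and 17.8%, and 10.3% and 72.2%. The sparse share was lower in 7 of 8 samples, and aged enriched replicate 2 was the exception. The mean difference was −9.27 ± 4.81 percentage points (SD, n = 8), with an exact sign-flip permutation p = 0.0156. Without aged enriched replicate 2 it was −10.7 ± 2.93 points (SD, n = 7; exact permutation p = 0.0156, the smallest that 7 samples allow). The median within-list percentile of a sparse-window peak was 37.0 to 44.0 in those 7 samples and 50.0 in aged enriched replicate 2. Scores also come from the peak calls that chose the windows, so the limit given for width holds for them.

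**Figure D1:**
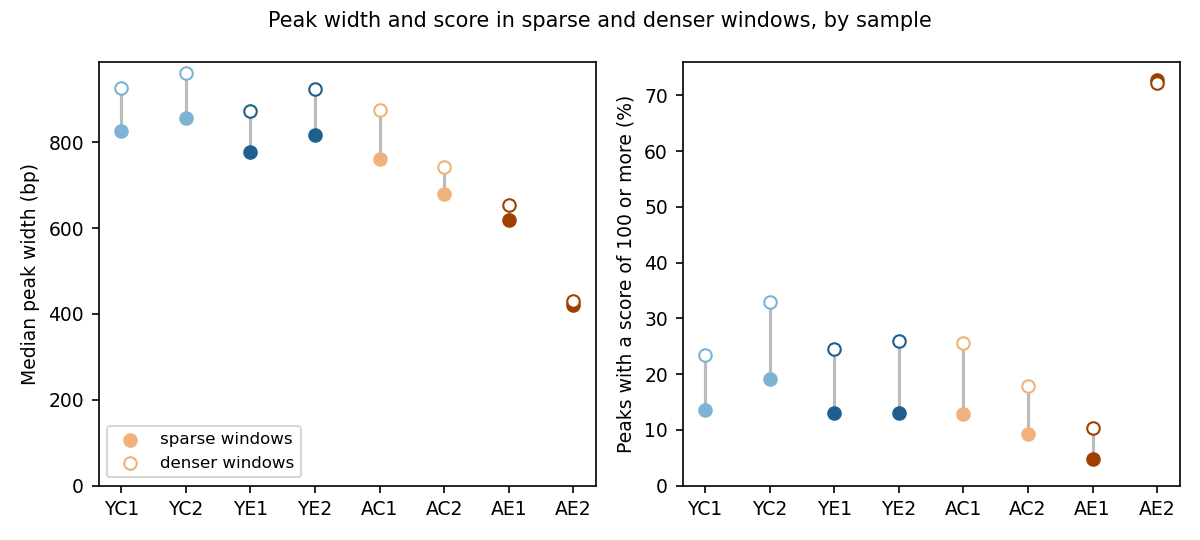
Median peak width in bp (left) and percent of peaks with a score of 100 or more (right) in each sample (Y young, A aged, C control, E enriched, then the replicate), with filled points for sparse and open points for denser windows. The filled point is below the open one in 8 of 8 samples for width and in 7 of 8 for score, the exception being aged enriched replicate 2, at 72.7% and 72.2%.

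Marked places in sparse windows recurred in fewer samples than those in denser windows. Overlapping peaks (1 bp or more) were joined across samples, which gave 8118 regions in sparse windows and 143314 in denser ones. In sparse windows 61.1% of the regions had a peak in 1 sample only, against 45.0% in denser windows. Regions with a peak in 2 samples were 18.2%, in 3 samples 9.46%, in 4 samples 5.3%, and in all 8 samples 0.209% (17 regions), against 1.42% (2035 regions) in denser windows. Median width grew with recurrence, from 664 bp for regions of 1 sample to 2200 bp for those of all 8. The share in 1 sample was 71.1% when all lists were shortened to their 25548 highest scores.

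The same held sample by sample. The share of a sample's sparse-window peaks that no other sample overlapped was 25.7% and 32.3% in controls and 28.5% and 28.6% in enriched samples of young mice, and 33.2% and 28.8% in controls and 42.7% and 57.0% in enriched samples of aged mice. In denser windows it was 11.6% to 30.3%, and lower than in sparse windows in each of the 8 samples. The other replicate of the group overlapped 52.4% and 27.2% of the sparse-window peaks in controls and 37.0% and 37.2% in enriched samples of young mice, and 19.1% and 29.9% in controls and 10.9% and 6.95% in enriched samples of aged mice. The corresponding shares in denser windows were 14.9% to 69.5%, again higher in each sample. Aged enriched replicate 2, with its narrow peaks, had the least overlap. Overlap by position depends on peak density and peak width, and both were lower in sparse windows. Their part in these shares was not tested.

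**Figure D2:**
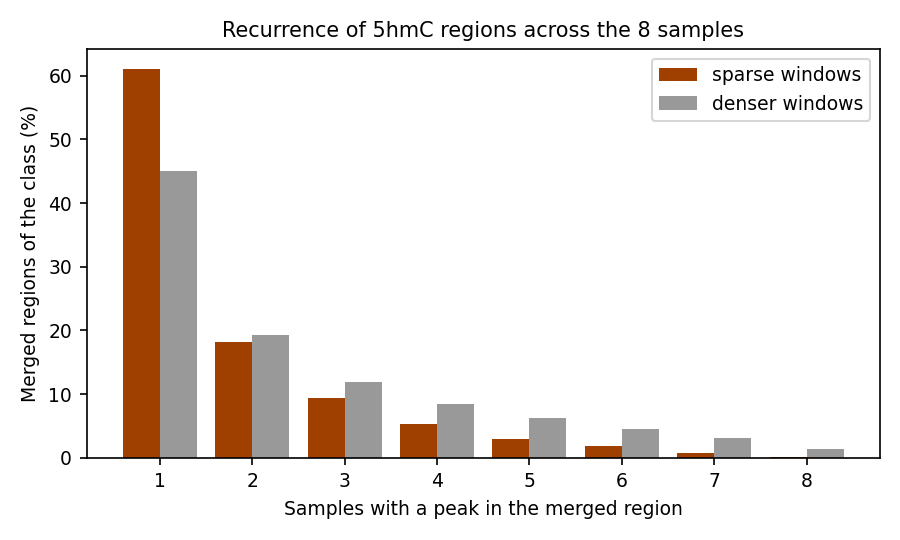
Percent of merged 5hmC regions (vertical axis) with a peak in 1 to 8 samples (horizontal axis), in sparse and in denser windows. Regions of 1 sample make up 61.1% in sparse and 45.0% in denser windows, and regions of all 8 samples 0.209% and 1.42%.

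The 17 regions marked in each of the 8 samples were in 16 windows of 11 chromosomes. They spanned 973 to 6032 bp (median 2200) and held 1.17% of all peaks in sparse windows. The highest mean score percentile (90.5) was at chr8:4246693-4250977, 4285 bp, with within-list percentiles from 61.3 in young control replicate 1 to 99.8 in aged control replicate 2. Next came chr7:27948430-27950807, in the window whose peaks all lay in 1 segment, with percentiles of 54.7 (aged enriched replicate 2) to 98.3 (aged control replicate 1). The others of the first 6 were chr7:13591182-13594034 (percentiles 32.9 to 99.0), chr9:25289907-25291279 (47.5 to 97.0), chr18:85025430-85028784 (27.1 to 99.8) and chr5:109099998-109102197 (6.2 to 99.3). A place that recurred in every sample could thus still rank low in the list of 1 of them.

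The window at 109 to 110 Mb of chromosome 5 was the only one with 2 regions shared by all 8 samples. It held 8, 9, 7, 7, 11, 12, 8 and 4 peaks, with young samples first, aged last and controls before enriched samples at each age, in 17 regions. Its other shared region, chr5:109979930-109985961, was the widest of the 17. Its within-list percentile was 100.0 in aged control replicate 1 and 41.9 to 99.2 in the other 7 samples. The other windows that held such a region tied at 1 each. Listed first among them were 11 to 12 Mb of chromosome 4 and 124 to 125 Mb of chromosome 10, with 42 and 38 regions. Their means of 9.875 and 9.75 peaks per list were near the upper bound. Shared regions were a small minority in these named windows.

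The share of each list that fell in sparse windows was lowest in the aged control samples. It was 3.81% and 4.05% in controls and 3.95% and 3.79% in enriched samples of young mice, and 2.98% and 3.02% in controls and 3.86% and 4.95% in enriched samples of aged mice. The exact 95% binomial intervals of the aged control samples (2.84 to 3.12% and 2.85 to 3.2%) lay below those of the other 6, but cover counting error only. The young groups overlapped and both aged enriched samples were above both aged control samples. A comparison of 2 samples with 2 cannot give an exact permutation p below 0.333, and none is given. The same order of the aged groups was present in windows of mean below 5, with 1.36% and 1.31% of the list in aged control and 2.25% and 3.49% in aged enriched samples.

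The comparison of aged control with young samples changed when the lists were shortened. With all lists shortened to their 25548 highest scores, the share was 3.17% and 2.49% in controls and 2.85% and 2.58% in enriched samples of young mice, and 1.99% and 2.72% in controls and 3.86% and 4.99% in enriched samples of aged mice. Aged control replicate 2 was then within the range of the young samples. Both aged enriched samples were above the other 6. With peaks of a score of at least 100 only, aged enriched replicate 1 had 1.89%, aged control samples 1.53% and 1.6%, young samples 1.98 to 2.44% and aged enriched replicate 2 4.97%. These alternatives were added after the data were seen. Shortening took no peak from aged enriched replicate 1 and the lowest scores from the other lists. Peaks with a score of 100 or more were rarer in sparse windows in 7 of 8 samples, so the cut itself can lower the share of the longer lists.

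**Figure D3:**
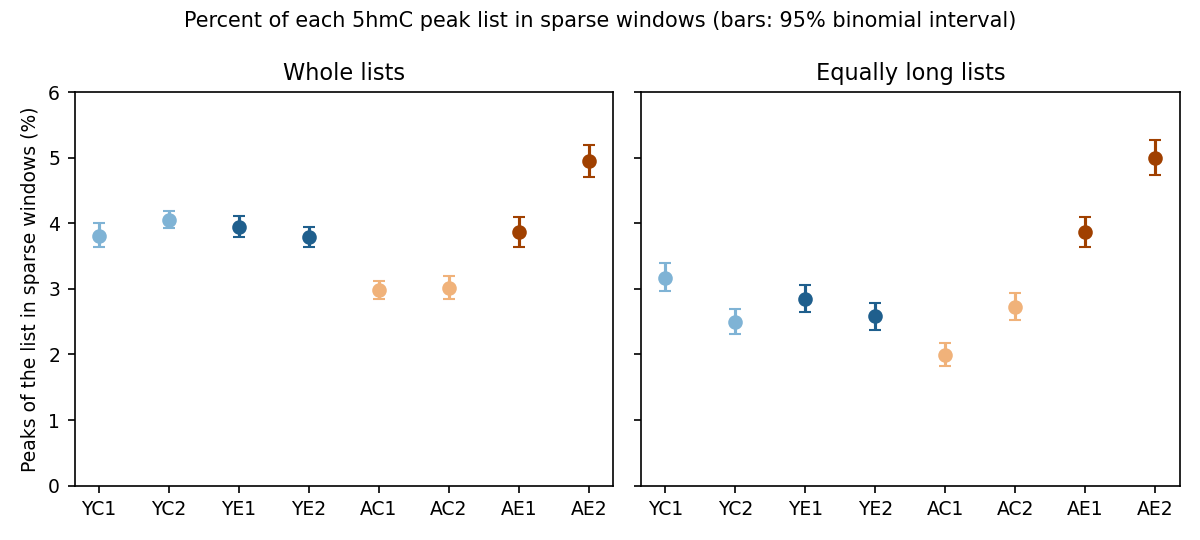
Percent of each sample's peak list in sparse windows, by sample (Y young, A aged, C control, E enriched, then the replicate), for the lists as deposited (left) and for lists shortened to equal length (right), with exact 95% binomial intervals as bars. In the lists as deposited both aged control samples are lowest (2.98% and 3.02%) and aged enriched replicate 2 is highest (4.95%).

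Replicates differed more in sparse than in denser windows, on counts that were low by choice. Low counts vary more on a log2 scale, and the part of that in the spread was not tested. The values compared here and below are log2 peaks per window relative to list length, with a pseudocount of 1 peak in a list of mean length. The median absolute difference between the replicates of a group, on that log2 scale, was 0.374 in controls and 0.339 in enriched samples of young mice, and 0.455 in controls and 0.589 in enriched samples of aged mice. In denser windows these were 0.198, 0.156, 0.24 and 0.332. The Pearson correlation of replicates across sparse windows was 0.254 for young control and 0.274 for young enriched mice. For aged mice it was 0.366 with standard cages and −0.0197 with enrichment. In denser windows it was 0.817 to 0.95. The aged enriched replicates thus shared no order of sparse windows, and the aged contrasts use this pair. Sparse windows span a narrow range by choice, and the part of that was not tested. The median standard error of a difference between housings at 1 age was 0.49 for sparse and 0.242 for denser windows. A change therefore had to be larger in a sparse window to pass. The fit used 1 spread for all 4 groups, although aged replicates differed more than young ones. Errors and p-values of the aged contrasts can thus be too small. With samples weighted by the spread of their group, the errors of the windows called below were 0.62 and 0.73, against 0.48 and 0.53.

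In aged mice, enriched housing against control housing left 2 sparse windows past the threshold, both higher and both on chromosome 16. limma with Benjamini-Hochberg adjustment over all 1548 tested windows called 2 of 258 sparse windows higher (0.775%), against 0.840% of all tested windows, and 0 lower, against 0.517%. The share called in sparse windows was near the background. At an unadjusted p below 0.05, 48 sparse windows were higher and 2 lower, together 19.4% against 21.6% of all tested windows in either direction. No background was computed for each direction at this p, here or in the contrasts below, so the balance of directions has none beside it.

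The window at 6 to 7 Mb of chromosome 16 held 11 and 13 peaks in controls and 9 and 5 in enriched samples of young mice, and 3 and 1 in controls and 7 and 14 in enriched samples of aged mice. Per 1000000 peaks of the list this was 252 and 165, 157 and 84.1, 50.6 and 26.3, and 274 and 454. The aged control samples were the lowest 2 of the 8 and the aged enriched samples the highest 2. The difference between aged enriched and aged control samples was 2.70 ± 0.48 on the log2 scale (SE; 95% interval 1.70 to 3.70; limma adjusted p = 0.0055). The same window differed between housings in young mice by −0.72 ± 0.48 (adjusted p = 0.996, limma) and the difference of these differences was 3.42 ± 0.69 (adjusted p = 0.0711, limma). The call was lost without aged control replicate 2 (2.41, adjusted p = 0.161), in a fit of the 4 aged samples alone (2.70, adjusted p = 0.142) and with peaks of a score of at least 100 (1.42, adjusted p = 0.547).

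The window at 40 to 41 Mb of chromosome 16, part of the longest run, held 4 and 9 peaks in controls and 5 and 8 in enriched samples of young mice, and 2 and 1 in controls and 5 and 7 in enriched samples of aged mice. Per 1000000 peaks it was 91.5 and 114, 87.0 and 135, 33.7 and 26.3, and 196 and 227. Here too the aged control samples were lowest and the aged enriched samples highest. The difference between the aged groups was 2.20 ± 0.53 (SE; 95% interval 1.11 to 3.30; limma adjusted p = 0.0334), and that between the young groups 0.07 ± 0.53 (adjusted p = 0.996). The interaction did not pass (2.13 ± 0.75, adjusted p = 0.453, limma). The call was lost in 11 of 19 alternatives, among them leaving out any 1 young or aged control sample (2.11 to 2.29, adjusted p 0.0853 to 0.271) and quantile normalization (1.47, adjusted p = 0.164).

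No region behind either call had a peak in both aged enriched samples. At 6 to 7 Mb of chromosome 16 the peaks formed 46 regions, 36 of them in 1 sample. An aged enriched peak was in 21 regions, none of which had a peak in both aged enriched samples, and 4 of which had a peak in a young sample. The region with most samples, chr16:6323462-6324382, had a peak in 4. At 40 to 41 Mb there were 28 regions, 22 in 1 sample, 11 with an aged enriched peak and none with both of these samples. Its most shared region, chr16:40436923-40438560, had a peak in 6 samples, including aged control replicate 1 and aged enriched replicate 2. Over all sparse windows the aged enriched replicates overlapped 10.9% and 6.95% of each other's peaks, so that little overlap is the background in this group and nothing particular to these windows is read from it.

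**Figure D4:**
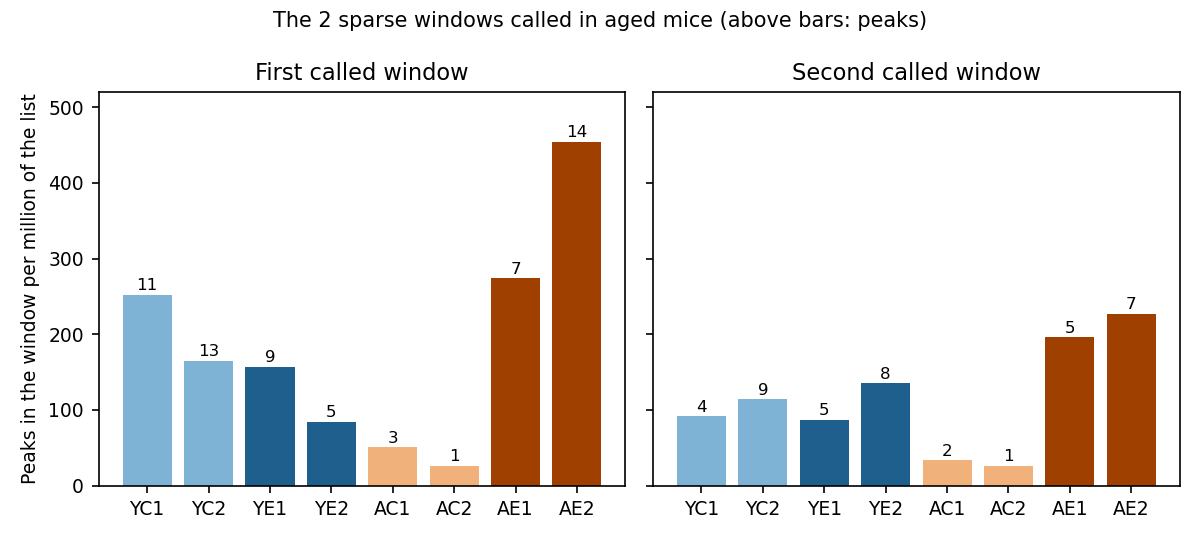
Peaks per 1000000 of the list in each sample (Y young, A aged, C control, E enriched, then the replicate) at 6 to 7 Mb (left) and 40 to 41 Mb (right) of chromosome 16, with the number of peaks above each bar. Aged control samples are lowest in both (26.3 to 50.6 on the left, 26.3 and 33.7 on the right) and aged enriched samples highest.

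The neighbours of the second window in the longest run did not pass. Their differences between aged enriched and aged control samples were 0.71 ± 0.63 at 39 to 40 Mb (adjusted p = 0.549, limma), 1.97 ± 0.55 at 41 to 42 Mb (adjusted p = 0.0711) and 0.79 ± 0.50 at 42 to 43 Mb (adjusted p = 0.365). All 4 windows of the run had positive values. In the run on chromosome 12 the 3 values were 0.19 to 0.56, and in the run on chromosome 2 they were 1.48, −0.61 and −0.28. No sparse window passed as lower. The nearest were 98 to 99 Mb of chromosome 3, at −1.27 ± 0.46 (adjusted p = 0.119, limma), and 63 to 64 Mb of chromosome 10, at −1.39 ± 0.56 (adjusted p = 0.16). At 98 to 99 Mb of chromosome 3 the aged control samples held 16 and 8 peaks and the aged enriched samples 2 and 3, which do not overlap also per 1000000 of the list (270 and 211 against 78.3 and 97.3).

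Across all sparse windows the relative peak density of aged mice was shifted upwards with enrichment, relative to standard cages. The median log2 density of a sparse window was 7.3 to 7.43 in the young samples. In aged mice it was 7.11 and 6.97 with standard cages, and 7.47 and 7.75 with enrichment. The shift thus included control values below all young ones, while aged enriched replicate 1 was close to the young samples. The part of each group in the shift was not tested. The median log2 difference was 0.418 in sparse windows, 0.064 in all tested windows and 0.018 in denser ones, and 191 of 258 sparse windows (74.0%) had a positive value against 55.4% of all tested windows. Both aged enriched samples were above both aged control samples in 104 sparse windows (40.3%), against 26.3% of all tested windows. They were below in 16 (6.2%), against 18.5%. The values ran from −1.39 to 2.70. Without aged enriched replicate 2 the median over sparse windows was 0.353, and without replicate 1 it was 0.672. With equally long lists it was 0.725, against 0.202 over all tested windows. After quantile normalization, which gives all samples the same distribution over windows, it was 0.057.

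Windows outside the chosen range were shifted too, by an amount that fell with peak density. The median was 0.672 in the 119 windows with a mean of at least 3 and below 5, 0.418 in sparse windows, 0.242 in the 339 windows from 10 to below 20, 0.066 in the 511 from 20 to below 40 and −0.155 in the 440 of at least 40. These classes use the mean over all 8 lists, in which the longer aged control lists weigh more than the aged enriched ones, so that a low mean favours low aged control counts. Classed instead by the mean over the 4 young samples, an alternative added after the data were seen, the medians were 0.624 (134 windows), 0.516 (233), 0.274 (304), 0.12 (478) and −0.126 (592) from 3 to below 5 upwards. The order of the classes was the same without any aged count in the classing.

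The size of the gradient depended on the samples and the scaling. From sparse windows upwards, over all 8 lists, the medians were 0.353, 0.167, 0.04 and −0.073 without aged enriched replicate 2. Without aged enriched replicate 1 they were 0.672, 0.451, 0.12 and −0.198. With equally long lists they were 0.725, 0.535, 0.202 and −0.232, and with quantile normalization 0.057, 0.005, −0.022 and −0.031. The gradient was thus larger in the shortened lists, smaller without aged enriched replicate 2, and nearly absent after quantile normalization. Shortening removes low-scoring peaks from the longer lists and none from aged enriched replicate 1. Quantile normalization evens out differences tied to window density. Both act on the gradient itself, so neither gives a neutral estimate of its size.

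**Figure D5:**
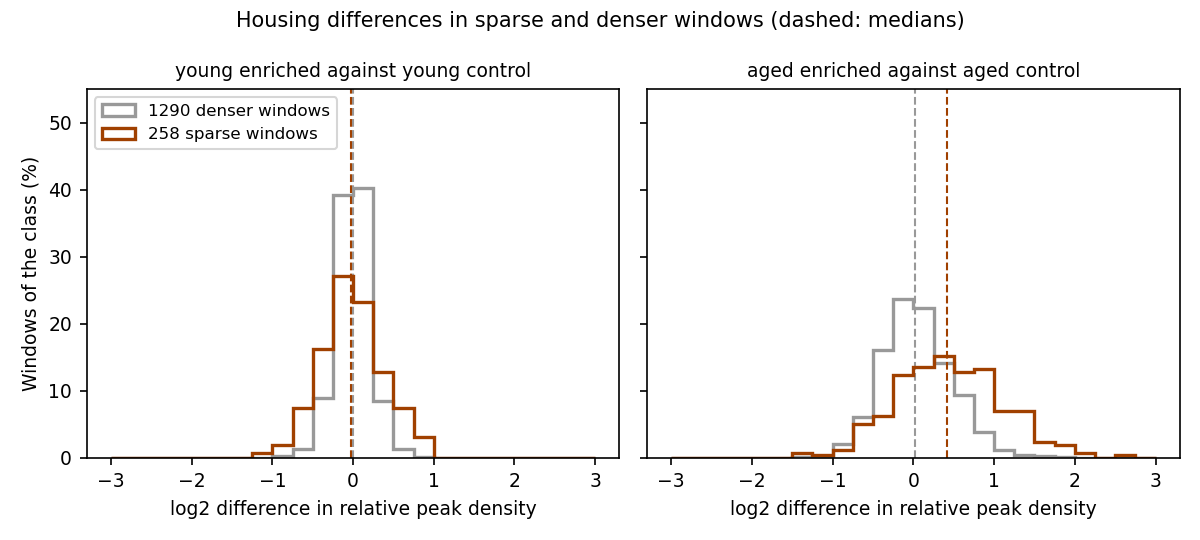
Percent of windows (vertical axis) by log2 difference in relative peak density between enriched and control housing (horizontal axis), in young (left) and aged (right) mice, for 258 sparse and 1290 denser windows, with medians dashed. In young mice the medians are −0.02 and 0.003, and in aged mice 0.418 and 0.018.

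At the level of single regions the aged comparison had the opposite balance. In sparse windows 45 regions (0.554%) had a peak in both aged enriched samples and neither aged control sample, and 208 (2.56%) had the reverse. In denser windows these shares were 0.566% and 5.93%. A region counted here needs a peak in both replicates of a group. The aged enriched replicates overlapped 10.9% and 6.95% of each other's sparse-window peaks, and the aged control replicates 19.1% and 29.9%. Aged control lists had 59260 and 38000 peaks against 25548 and 30832 in aged enriched samples. The relative density divides out list length and needs no overlap. The part of overlap and list length in this balance was not tested.

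In young mice housing made no difference that passed in sparse windows. limma called 0 of 258, against 0% of all tested windows, and at an unadjusted p below 0.05 there were also 0 sparse windows, against 9 of 1548. The median log2 difference was −0.02, against −0.003 over all tested windows, and 120 of 258 were positive. Both young enriched samples were above both young control samples in 37 sparse windows (14.3%, against 15.5% of all tested windows) and below in 46 (17.8%, against 16.5%). The counts were near the background in both directions.

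Of single windows the nearest to passing as higher in young enriched samples were 45 to 46 Mb of chromosome 5 (0.95 ± 0.49) and 101 to 102 Mb of chromosome 13 (0.80 ± 0.46). The nearest as lower were 21 to 22 Mb of chromosome 11 (−1.22 ± 0.61) and 39 to 40 Mb of chromosome 16 (−1.25 ± 0.63). All 4 had a limma adjusted p of 0.996. At 21 to 22 Mb of chromosome 11 the young control samples held 9 and 17 peaks and the young enriched samples 14 and 1. The low value was that of 1 sample, and without young enriched replicate 2 the difference was 0.19. Regions with a peak in both young enriched and neither young control sample numbered 157 (1.93%, against 2.17% in denser windows), and the reverse 221 (2.72%, against 2.8%).

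Over both ages, enriched against control housing called 0 of 258 sparse windows in limma, against 0% of all tested windows. At an unadjusted p below 0.05, 30 were higher and 0 lower (together 11.6%, against 11.7% of all tested windows in either direction). The smallest adjusted p was 0.335, shared by 40 to 41 Mb of chromosome 16 (1.14 ± 0.37) and 99 to 100 Mb of chromosome 7 (1.15 ± 0.38). The second window held 3, 15, 11 and 9 peaks in the young samples, 5 and 1 in aged control and 5 and 8 in aged enriched samples. Only its aged values separate the housings. The nearest as lower were 114 to 115 Mb of chromosome 4 (−0.68 ± 0.35, adjusted p = 0.447) and 21 to 22 Mb of chromosome 1 (−0.54 ± 0.36, adjusted p = 0.579). All 4 enriched samples were above all 4 control samples in 5 sparse windows (1.94%, against 1.42% of all tested windows), and below in 0 (against 1.55%). This contrast shares its aged samples with the comparison above.

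Age, over both housings, also called 0 of 258 sparse windows in limma, against 0% of all tested windows. At an unadjusted p below 0.05, 7 were higher and 17 lower in aged samples (together 9.3%, against 9.75% of all tested windows in either direction). The median difference of aged from young samples was −0.192, against −0.058 over all tested windows, but it turned to 0.146 with equally long lists and to 0.047 with quantile normalization. All 4 aged samples were above all 4 young samples in 3 sparse windows (1.16%, against 1.68% of all tested windows) and below in 6 (2.33%, against 3.10%).

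The lowest adjusted p for age, 0.248 in limma, was that of 34 to 35 Mb of chromosome 15. It held 9, 14, 9 and 11 peaks in the young samples, 7 and 1 in aged control and 3 and 0 in aged enriched samples, a difference of −1.62 ± 0.50. Each aged sample was below each young one, at 0 to 118 against 157 to 206 peaks per 1000000. Next as lower was 103 to 104 Mb of chromosome 4 (−0.90 ± 0.31, adjusted p = 0.394), with 12 to 15 peaks in young and 2 to 8 in aged samples. The nearest as higher were 123 to 124 Mb (0.85 ± 0.31, adjusted p = 0.443) and 67 to 68 Mb (0.96 ± 0.40, adjusted p = 0.461) of chromosome 3. At 123 to 124 Mb the aged samples had 132 to 292 peaks per 1000000 and the young samples 87.0 to 114. No region had a peak in all 4 aged samples and no young sample, and 63 (0.776%, against 0.911% in denser windows) had the reverse.

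The interaction of age and housing, which asks whether the housing difference itself changed with age, called 0 of 258 sparse windows in limma, against 0% of all tested windows. At an unadjusted p below 0.05, 30 were positive and 2 negative (together 12.4%, against 10.4% of all tested windows in either direction). The median interaction was 0.477, against 0.054 over all tested windows. Across the alternatives it ranged from 0.097 with quantile normalization to 0.772 with equally long lists, and it was 0.719 without aged enriched replicate 1. Beside 6 to 7 Mb of chromosome 16, the nearest as positive was 65 to 66 Mb of chromosome 6 (2.13 ± 0.73, adjusted p = 0.453). It held 7 and 7 peaks in controls and 6 and 4 in enriched samples of young mice, and 3 and 2 in controls and 6 and 6 in enriched samples of aged mice. The nearest as negative were 98 to 99 Mb of chromosome 3 (−1.90 ± 0.65, adjusted p = 0.453) and 63 to 64 Mb of chromosome 10 (−1.74 ± 0.79, adjusted p = 0.47). A difference between the housing responses of young and aged mice was thus not called for any sparse window.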

How the data were processed

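The authors deposited 1 list of 5hmC peaks per sample, with a score per peak, each with its own numbering and so called per sample. CASAVA 1.4, Bowtie 0.12.9, MACS 1.4.2 and mm9 are named per the submitters' processing notes. The sources used here give no caller settings, background library or read numbers. Starts, ends and the score were used as deposited.

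Peaks were counted by midpoint in 1 Mb windows. The 1548 windows with a mean of at least 5 were fitted together with limma 3.58.1 (R 4.3.3, intensity trend, 4 groups with 1 shared spread, threshold 0.05) on log2 peaks relative to list length. The pseudocount was proportional to list length, 1 peak in a list of mean length, since a flat one adds more per peak to shorter lists. The model was tested on simulated data. Width and score were compared within samples by exact sign-flip permutation. Windows named were, per contrast and direction, those past the threshold or else the 2 with the smallest unadjusted p, the 3 longest runs, the 3 with most regions in all 8 samples and those next to the bounds. Regions named were the 6 shared regions with the highest mean score percentile and the most shared region of each called window. Counts and figures used Python 3.11.15, numpy 2.4.6, pandas 2.3.3, scipy 1.17.1 and matplotlib 3.10.9. The windows, tests and named items were chosen with earlier results of these data known. Alternatives were other pseudocounts, filters and scalings, equally long lists, stricter scores, a replicate block and leaving out each sample.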

Additional observations from a re-analysis of the deposited data

Results flagged for a closer look

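Aged enriched replicate 2 had 4.95% of its list in sparse windows, far from the other 3 enriched samples (3.79%, 3.86% and 3.95%) relative to their range. In all, 15 combinations of a measure and a set of samples were examined in this way and 1 gave such a gap. Chance gives one in about 1 of 20 independent sets, but these sets share samples. The same sample had the narrowest peaks and the largest share of high scores, and the part of these in the value was not tested.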

How the results depend on the processing

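The count of 2 sparse windows called between aged enriched and aged control samples moved most. It was 13 with a flat pseudocount, 13 with equally long lists, 0 with a score of at least 100, 1 with quantile normalization, 1 with every window with a peak tested, 1 with array weights, 0 with the aged samples alone, and 0 to 42 when 1 sample was left out. It was 42 (39 higher, 3 lower) without aged enriched replicate 1, 19 (12 higher, 7 lower) without replicate 2, 4 without aged control replicate 1, 0 without aged control replicate 2 and 1 without each young sample in turn. A group left with 1 sample is assumed to vary like the others. Leaving out 1 sample gave 0 to 12 calls for housing over both ages, 0 to 21 for age and 0 to 7 for the interaction, against 0 with all samples. The nonzero counts came without aged enriched replicate 1 (12, 3 and 7) or replicate 2 (2, 21 and 3). The interaction had 1 call each with a flat pseudocount, a pseudocount of 4 peaks and array weights. Differences turned sign, none of them past the threshold with all samples, at 45 to 46 Mb of chromosome 5 (−0.44, score of at least 100) and 101 to 102 Mb of chromosome 13 (−1.45, equally long lists; −0.83, score of at least 100). The same held at 21 to 22 Mb of chromosome 11 (−2.62 to 0.19 when 1 sample was left out, 0.19 without young enriched replicate 2), 21 to 22 Mb of chromosome 1 and 103 to 104 Mb of chromosome 4 (0.35 and 0.56, score of at least 100). The cause was not tested. Width and score differences kept direction and side of the threshold in all alternatives run. Same-numbered samples did not clearly deviate together (r −0.142 to 0.11 across windows), and the main fit did not pair them. Whether the numbers mark a shared batch is not known from the labels. With a replicate block 2 sparse windows were called in aged mice and 0 in the other contrasts. Reads per sample are unknown, and with few peaks per window small differences were not detectable.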
